A study of Mus musculus with 4 samples.

Results

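The core genes of transforming growth factor beta (TGF-beta) signalling were examined in mouse T cells: the ligand Tgfb1, the receptors Tgfbr1, Tgfbr2 and Tgfbr3, the signal transducers Smad2, Smad3 and Smad4, the inhibitor Smad7, and the corepressors Ski and Skil. These 10 genes were taken by name from the 50600 genes in the tables, and all 10 were found. RNA came from primary T cells of strain C57BL/6NJ, in 4 libraries, numbered 1 to 4 as biological replicates of a single cell type. The headers call all 4 samples bulk cells activated for 72 h, with names that begin mmTh0. The labels name no treatment, cytokine or second group, give neither sex nor age, do not say whether animals were pooled, and give every library the same donor identifier. That identifier cannot stand for a single animal, because Xist and the Y-linked Ddx3y, given below, split the libraries by sex. The spread between libraries may be technical in part, which was not tested. Levels are in TPM, a length-scaled transcript abundance: the count divided by the gene's exon length and scaled to the same sum in each library, and are means ± SD over the 4 libraries unless stated.

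TGF-beta is secreted in a latent form and must be released before it can act. The active ligand binds TGFBR2, which recruits and phosphorylates TGFBR1, while TGFBR3 (betaglycan) presents ligand to the other receptors. TGFBR1 phosphorylates SMAD2 and SMAD3, which join SMAD4 and enter the nucleus. SMAD7 blocks the receptors, and SKI and SKIL (SnoN) hold SMAD complexes in a repressed state. In CD4 T cells the pathway is known for restraining activation and, with other cytokines, for directing regulatory and Th17 differentiation.

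The cells carried T-cell markers. Cd4 stood at 1056 ± 62.8 TPM, all 6 T-cell markers were at 1 TPM or above in every library, and the activation gene Tnfrsf4 stood at 2363 ± 169.9 TPM. Of the markers of platelets, which store the ligand, Pf4 and Ppbp had 0 counts in every library and Itga2b stood at 1.03 ± 0.254 TPM. The summed TPM of 3 markers each ran from 0.651 to 1.04 over libraries for fibroblasts and stroma, with Col3a1 at 0 counts, from 0.114 to 1.11 for macrophages and monocytes, and from 1.26 to 2.28 for B cells. Of the other lists, CD8 markers summed to 12.9 to 18.2 TPM (Cd8b1 15.8 ± 2.38, Cd8a 0.190 ± 0.0957), natural killer markers to 2.66 to 5.17 TPM (Eomes 3.45 ± 1.08), dendritic-cell markers to 0.0869 to 0.650 TPM, and endothelial markers to 22.4 to 24.3 TPM (Pecam1 23.2 ± 0.862, Cdh5 at 0 counts). The 4 regulatory T-cell markers summed to 14.3 to 20.5 TPM, most of it Ikzf2 (12.1 ± 2.52 TPM), with Foxp3 at 2.74 ± 0.948 TPM. The part of such cells in the levels below was not tested, and in bulk RNA fewer cells of a type and less RNA per cell cannot be told apart. Library totals ran from 49613182 to 94222415 counts. The libraries stood apart in Xist, at 332, 150.1, 0.877 and 0.392 TPM in replicates 1 to 4, and in the Y-linked Ddx3y, at 0.0344, 0.0834, 49.0 and 45.8 TPM. Replicates 1 and 2 thus showed the pattern of female cells, and replicates 3 and 4 that of male cells. The libraries therefore came from more than 1 animal.

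Sequence upstream of the annotated start was taken from RefSeq (GRCm38.p6) for 5 of the 10 members: Tgfb1, Tgfbr1, Tgfbr2, Smad3 and Ski. Skil and Tgfbr3 had no match, and the promoters of Smad2, Smad4 and Smad7 were not used here. The 250 bases before the start are shown for the most and least abundant members and for the type II and type I receptors, whose levels differed about 3-fold. Capitals mark matches, on either strand, to GGCGC (a GC-rich SMAD motif), CAGAC (the core of the CAGA box, another SMAD motif) or GGGCGG (the GC box). Matches may share letters.
Tgfb1 (chr7:25686752-25687001, plus strand): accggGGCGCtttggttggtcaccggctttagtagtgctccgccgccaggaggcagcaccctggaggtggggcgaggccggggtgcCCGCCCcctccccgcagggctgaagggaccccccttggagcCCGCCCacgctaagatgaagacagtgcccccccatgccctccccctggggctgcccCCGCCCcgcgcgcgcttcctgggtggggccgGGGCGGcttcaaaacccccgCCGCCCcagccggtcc
Smad3 (chr9:63757995-63758244, minus strand): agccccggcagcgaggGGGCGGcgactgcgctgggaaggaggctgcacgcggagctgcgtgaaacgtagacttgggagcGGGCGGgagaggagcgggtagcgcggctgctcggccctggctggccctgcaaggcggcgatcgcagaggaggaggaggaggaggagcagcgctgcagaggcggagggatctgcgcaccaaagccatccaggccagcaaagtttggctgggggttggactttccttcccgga
Tgfbr2 (chr9:116175364-116175613, minus strand): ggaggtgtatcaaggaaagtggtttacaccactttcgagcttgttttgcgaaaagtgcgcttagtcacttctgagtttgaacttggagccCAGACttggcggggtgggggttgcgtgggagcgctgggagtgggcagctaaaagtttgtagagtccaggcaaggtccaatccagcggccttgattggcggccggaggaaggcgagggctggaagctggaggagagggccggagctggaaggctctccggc
Tgfbr1 (chr4:47352972-47353221, plus strand): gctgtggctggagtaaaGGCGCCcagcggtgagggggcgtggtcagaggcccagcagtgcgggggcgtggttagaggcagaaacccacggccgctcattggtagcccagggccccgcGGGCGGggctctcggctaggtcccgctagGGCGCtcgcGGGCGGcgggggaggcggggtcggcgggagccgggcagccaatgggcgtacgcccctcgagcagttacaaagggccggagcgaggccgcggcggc

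The Tgfb1 window held 5 GC boxes and 1 GGCGC match, and the Smad3 window 2 GC boxes and neither SMAD motif. The Tgfbr2 window held 1 CAGAC match and no GC box, whereas the Tgfbr1 window held 3 GGCGC matches and 2 GC boxes. A second annotated Tgfbr1 start held 1 CAGAC match. The Ski window had 7 GGCGC matches and 5 GC boxes. Among all 32851 windows of the same length in the table, 32.7% held a GC box, 32.02% GGCGC and 42.2% CAGAC. The palindrome GTCTAGAC, which 0.167% of all windows held, was found in none of these windows, and neither was TGANTCA (AP-1, 6.75% of all windows), TGACGTCA (CRE, 1.55%) or TATAAA (12.4%). GC content was 75.2% for Tgfb1, 69.2% for Smad3, 58.4% for Tgfbr2, 74.8% for the first Tgfbr1 start, 52.8% for the second and 87.6% for Ski, against a median of 52.4% over all windows. These matches are a description of the letters and were not related to the levels by any test.

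All 10 members were expressed. Each reached 1 TPM in every library, where 49.4% of 21764 protein-coding genes did so (10754 genes). The median member stood at 49.5 TPM and the median detected protein-coding gene at 34.8 TPM, and 6 of the 10 members lay above that median. Levels ran from 191 TPM for Tgfb1 to 4.00 TPM for Smad3.

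**Figure D1:**
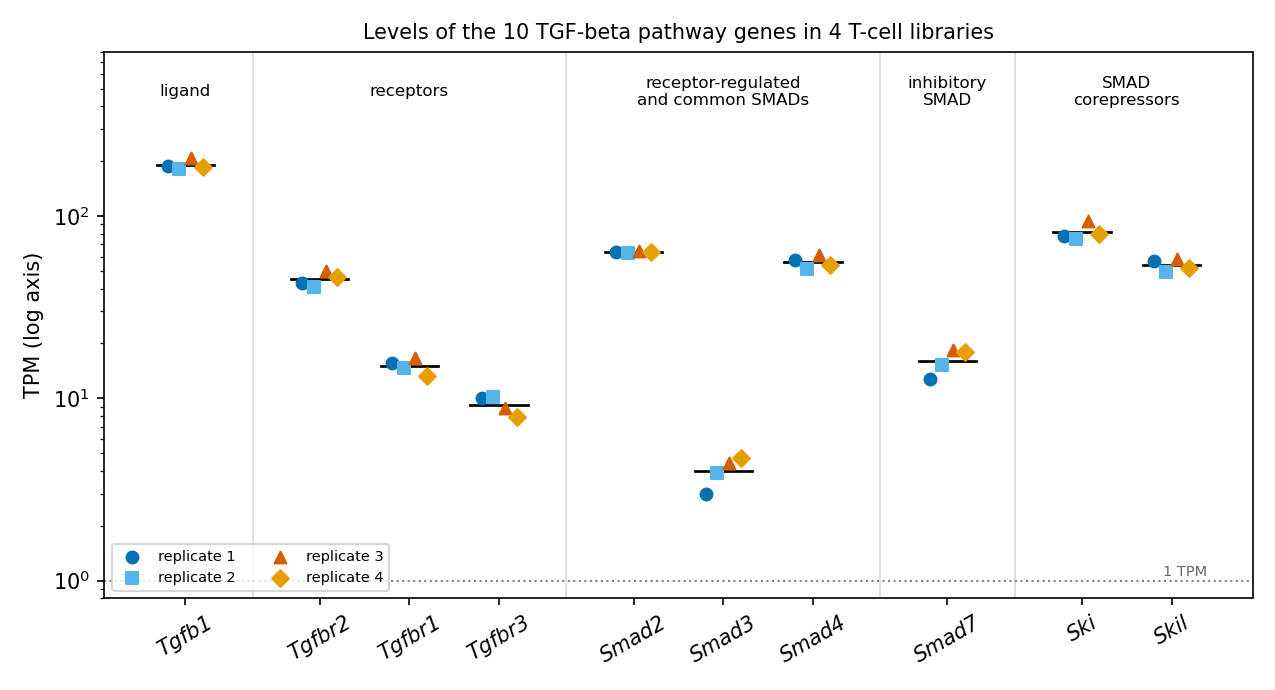
TPM (log axis) of each member in the 4 libraries, grouped by role; points are libraries, horizontal bars are means and the dotted line is 1 TPM. Tgfb1 lies highest in every library (181 to 208 TPM) and Smad3 lowest (2.97 to 4.69 TPM).

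Tgfb1, the gene of the ligand (ENSMUSG00000002603, mm10, chromosome 7, 25687002 to 25705077, plus strand), was the most abundant member. The 4 libraries gave 189, 181, 208 and 186 TPM in order, a mean of 191 ± 11.9 TPM (SD, n = 4), from at least 14618 counts per library. The libraries lay close together, with a coefficient of variation (CV, the SD over the mean) of 6.22%. Its level ranked 981 among the 21764 protein-coding genes. The sister ligand Tgfb3 stood at 2.28 ± 0.264 TPM and Tgfb2 at 0.0687 ± 0.0340 TPM, so that Tgfb1 made up 98.8 ± 0.144% of the TPM of the 3 ligand genes. The difference Tgfb1 minus Tgfb3 was 5.87 ± 0.13 in log2(TPM + 1), positive in 4 of 4 libraries. The exons counted for Tgfb1 sum to 5042 bases, while its longest coding transcript in the later annotation has 2175, and with transcript lengths for all genes its mean was 324 TPM.

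The 3 receptors were expressed at lower levels than the ligand, in the order Tgfbr2, Tgfbr1, Tgfbr3 in every library. Tgfbr2, the type II receptor that binds ligand (chromosome 9, 116084293 to 116175360, minus strand), stood at 43.0, 40.7, 49.8 and 46.3 TPM in replicates 1 to 4. Tgfbr1, the type I receptor kinase (chromosome 4, 47353222 to 47414931, plus strand), stood at 15.6, 14.6, 16.6 and 13.3 TPM. Tgfbr3, the coreceptor (chromosome 5, 107106570 to 107289629, minus strand), stood at 10.1, 10.1, 8.85 and 7.85 TPM. No range overlapped that of another receptor. The means were 44.9 ± 3.99, 15.0 ± 1.43 and 9.24 ± 1.101 TPM (SD, n = 4), and Tgfbr2 took 64.9 ± 3.08% of the TPM of the 3 genes. Replicate 4 was lowest for both Tgfbr1 and Tgfbr3, but second highest for Tgfbr2. The TPM ratio of Tgfbr2 to Tgfbr1 accordingly ran from 2.76 in replicate 1 to 3.49 in replicate 4. An unnamed gene model, Gm43422, shares 4.54% of the Tgfbr3 exon bases on the same strand, so reads from that stretch can be missing from its count.

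Smad3 was far less abundant than Smad2. Both encode receptor-regulated SMADs that TGFBR1 phosphorylates. Smad3 (chromosome 9, 63646767 to 63757994, minus strand) stood at 2.97, 3.89, 4.44 and 4.69 TPM in replicates 1 to 4, a mean of 4.00 ± 0.764 TPM. Smad2 (chromosome 18, 76241580 to 76305731, plus strand) stood at 63.9, 62.5, 64.2 and 63.4 TPM, a mean of 63.5 ± 0.747 TPM. The ranges lay far apart in all libraries, and Smad2 took 94.1 ± 1.07% of the TPM of the pair. Smad3, from 276 to 722 counts per library, had a CV of 19.1%, the highest of the 10, with a counting error of at most 6.02%. Smad2 had the lowest CV, 1.18%, which is below its own largest counting error of 1.77%. The counted Smad2 exons sum to 3549 bases, while its longest coding transcript in the later annotation has 8089. Both lengths divide the same counts, taken over the 3549 bases, so the longer length understates Smad2. With transcript lengths the Smad2 mean, so understated, was 20.4 TPM and its share of the pair 86.5 ± 2.26%. The difference Smad3 minus Smad2 was then -2.37 ± 0.22 in log2(TPM + 1), against -3.70 ± 0.23 with the counted lengths.

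Smad4, the common partner of the activated SMADs (chromosome 18, 73639009 to 73703780, minus strand), stood at 57.3, 51.1, 61.2 and 54.2 TPM, a mean of 55.96 ± 4.33 TPM. It was slightly below Smad2 in each library. With transcript lengths, which understate Smad2, the Smad4 mean was above, at 44.9 TPM against 20.4 TPM for Smad2. Smad4 exceeded Smad3 by 3.52 ± 0.26 in log2(TPM + 1), and the TPM ratio ran from 11.6 in replicate 4 to 19.3 in replicate 1.

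Smad7, the inhibitory SMAD that targets the receptors and is itself a classical TGF-beta target gene, was expressed at a moderate level. It lies on chromosome 18 (75367529 to 75395935, plus strand), between Smad4 and Smad2, and the 3 genes span 2.67 Mb. Its level was 12.8, 15.2, 18.3 and 18.04 TPM in replicates 1 to 4, a mean of 16.1 ± 2.60 TPM. Replicate 1 was lowest and replicates 3 and 4 were highest. Smad6, the other inhibitory SMAD, stood at 0.205, 0.0193, 0.0896 and 0.0337 TPM from 11, 1, 4 and 3 counts, where 3 counts give at most 0.0672 TPM. Smad7 exceeded it in 4 of 4 libraries, by 3.97 ± 0.31 in log2(TPM + 1). The size of that difference rests on the added constant: in log2(TPM + 0.1) the mean was 6.52. The TPM ratio ran from 62.6 in replicate 1 to 788 in replicate 2.

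The corepressors Skil and Ski were both abundant. Skil (chromosome 3, 31095058 to 31122577, plus strand) stood at 56.8, 49.3, 58.0 and 51.8 TPM, a mean of 54.0 ± 4.11 TPM. Ski (chromosome 4, 155154075 to 155222592, minus strand) stood at 77.5, 74.7, 94.0 and 79.5 TPM, a mean of 81.4 ± 8.60 TPM and second only to Tgfb1 among the members. Skil lay below Ski in each library, with no overlap of ranges and a difference of -0.58 ± 0.10 in log2(TPM + 1). That gap changed with the gene length used: with transcript lengths it was -0.07 ± 0.10, positive in replicate 1 and negative in the other libraries.

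The order of the 10 means was Tgfb1, Ski, Smad2, Smad4, Skil, Tgfbr2, Smad7, Tgfbr1, Tgfbr3, Smad3, and replicates 2, 3 and 4 each gave that same order. Replicate 1 differed only in placing Tgfbr1 above Smad7. Of the 9 neighbours in the order, 3 had overlapping ranges: Smad4 and Skil, Skil and Tgfbr2, and Smad7 and Tgfbr1. With transcript lengths Smad2 (20.4 TPM, understated as above) fell behind Ski (60.0 TPM), Skil (57.0 TPM), Smad4 (44.9 TPM) and Tgfbr2 (33.3 TPM). Skil then also stood above Smad4, and Tgfbr1 (12.48 TPM) was nearly level with Smad7 (12.46 TPM).

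**Figure D2:**
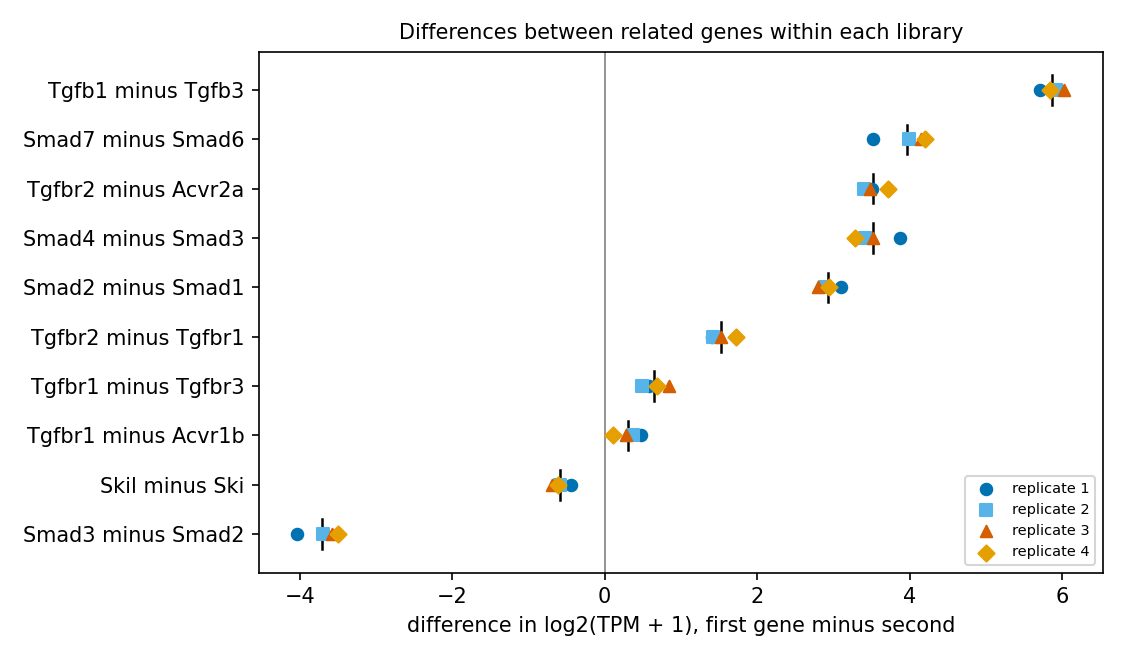
Difference in log2(TPM + 1) within each library (points) and its mean (vertical bars) for 10 pairs of related genes, first gene minus second. All 10 differences keep 1 sign in the 4 libraries, from -3.70 for Smad3 minus Smad2 to 5.87 for Tgfb1 minus Tgfb3.

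Differences between related genes were compared within libraries for 10 pairs. All 10 had 1 sign in 4 of 4 libraries, and in each the exact two-sided sign-flip p was 2 of the 16 sign patterns, before and after adjustment over the 10 pairs, the smallest that 4 libraries allow, so no pair could pass a threshold of 0.05. The TGF-beta transducer Smad2 exceeded Smad1, a transducer of bone morphogenetic proteins (BMPs), by 2.93 ± 0.12 in log2(TPM + 1). That difference was 1.09 ± 0.13 with transcript lengths, which understate Smad2. Tgfbr2 exceeded the activin type II receptor Acvr2a (3.00 ± 0.402 TPM) by 3.52 ± 0.13. Tgfbr1 and the activin type I receptor Acvr1b (12.0 ± 1.22 TPM) were closer, at 0.31 ± 0.15, with a TPM ratio of 1.43 in replicate 1 and 1.09 in replicate 4.

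Whether a member spread more between libraries than genes of like abundance was tested with edgeR over all 13681 genes that passed the filter, among which 94 (0.687%) were called at an adjusted p under 0.05. None of the 10 members was called, and 1 of 10, Smad7, had an unadjusted p under 0.05, where 959 genes (7.01%) did. DESeq2 marked 0 members as dispersion outliers. Smad7 had an edgeR p of 0.0343 (adjusted p = 0.625) and Smad3 of 0.122 (adjusted p = 0.926). Leaving out replicate 1, in which both were lowest, gave an edgeR p of 0.524 for Smad7 and 0.653 for Smad3, and leaving out replicate 2 gave 0.0108 for Smad7 and 0.0585 for Smad3. The adjusted edgeR p ran from 0.513 to 1.00 for Smad7 and from 0.297 to 1.00 for Smad3 over all settings tried.

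The members nonetheless ordered the libraries in more than 1 way. Of the 10, 8 were highest in replicate 3 by TPM and 6 were lowest in replicate 2, among them Tgfb1, Tgfbr2, Smad4, Ski and Skil. The share of all genes with that order was not computed. In TMM-scaled CPM, Smad4 and Skil stayed lowest in replicate 2, but Tgfb1, Tgfbr2 and Ski were lowest in replicate 1. By that measure Smad2 was lowest in replicate 3 and highest in replicate 2, and Smad7 was highest in replicate 4. The median over the members of log2(TPM + 1) minus each gene's mean was 0.134 in replicate 3 and -0.0692 in replicate 2. Over the 6368 detected protein-coding genes with at least 3549 exon bases, as all members have, it was 0.0887 in replicate 3 and -0.0854 in replicate 2. The part of transcript length in the members' spread was not tested.

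The rest differed from that TPM order in at least 1 end. Smad3 and Smad7 were lowest in replicate 1, and Tgfbr1 and Tgfbr3 in replicate 4. Tgfbr3 was highest in replicate 2 and Smad3 in replicate 4. Highest over lowest library, the TPM ratio was 1.58 for Smad3, 1.43 for Smad7 and 1.29 for Tgfbr3. The part of the Xist and Ddx3y difference between libraries in the members' levels was not tested.

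**Figure D3:**
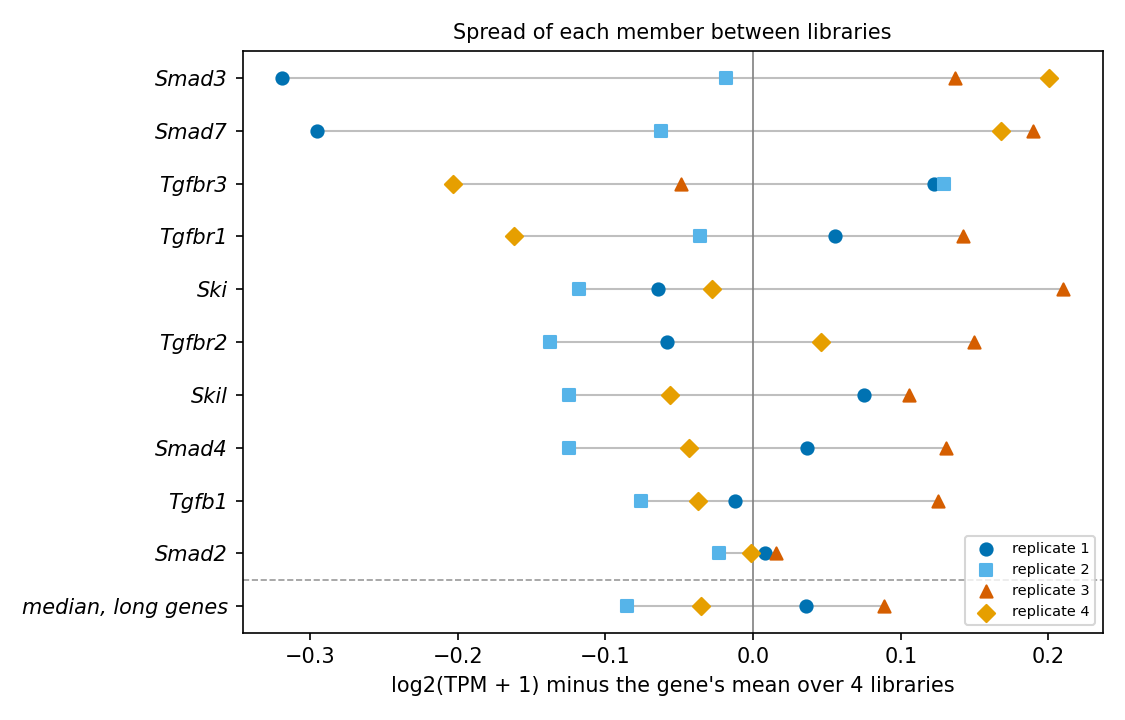
log2(TPM + 1) of each member in each library minus its mean over the 4 libraries (points); the lowest row gives the median over the 6368 detected genes with at least 3549 exon bases. Smad3 and Smad7 spread widest and are lowest in replicate 1, while Smad2 spreads least.

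The other genes of the pathway were read from lists. Of 79 such genes, 53 were at 1 TPM or above in every library, with a median of 7.19 TPM. The counts of detected genes in the lists below stand against the 49.4% of all protein-coding genes that were detected. None of the 60 that passed the filter was called for spread (edgeR), and 3 had an unadjusted p under 0.05, Ltbp4 and Foxp3 among them. DESeq2 marked 0 of them.

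Of 13 other ligands, 4 were detected: Bmp2, a BMP ligand, at 29.8 ± 2.39 TPM, Inhba, which encodes the activin A subunit, at 13.5 ± 2.89 TPM, Gdf11 at 12.6 ± 0.556 TPM, and Tgfb3. Bmp4 had 0 counts in each library, for which 3 counts set a limit of 0.0968 TPM. The median of the list was 0.0687 TPM.

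Of genes that store, cleave or release the ligand, 7 of 13 were detected, a share near the 49.4% over all protein-coding genes. Furin, the protease that cleaves the TGF-beta precursor, stood at 119 ± 7.52 TPM, and Nrros, whose product tethers latent TGF-beta in myeloid cells, at 55.3 ± 0.788 TPM. Lrrc32 (GARP), which tethers it on regulatory T cells, stood at 3.03 ± 0.417 TPM. The integrin beta-1 gene Itgb1 stood at 329 ± 14.0 TPM and the integrin alpha-V gene Itgav at 18.5 ± 2.07 TPM. The partner chain Itgb8, which with alpha-V releases active TGF-beta, stood at 0.347 ± 0.0629 TPM, and Itgb6 had 0 counts throughout (limit 0.0303 TPM). Ltbp1, a matrix protein that binds the latent complex, had 0 counts as well (limit 0.0206 TPM), while Ltbp3, which also binds it, stood at 6.02 ± 0.870 TPM.

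Of 12 other receptor and related genes, most from the activin and BMP branches, 8 were detected, each with a mean below that of Tgfbr1. Acvr1b was highest, followed by Acvr1 at 10.3 ± 1.18 TPM and the BMP type II receptor Bmpr2 at 10.1 ± 1.13 TPM. Eng (endoglin), a coreceptor like Tgfbr3, stood at 7.19 ± 1.12 TPM. Among the other SMADs, Smad5 stood at 10.2 ± 1.24 TPM and Smad1 at 7.47 ± 0.729 TPM, both above Smad3. Smad9 stood at 0.0167 ± 0.0201 TPM.

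**Figure D4:**
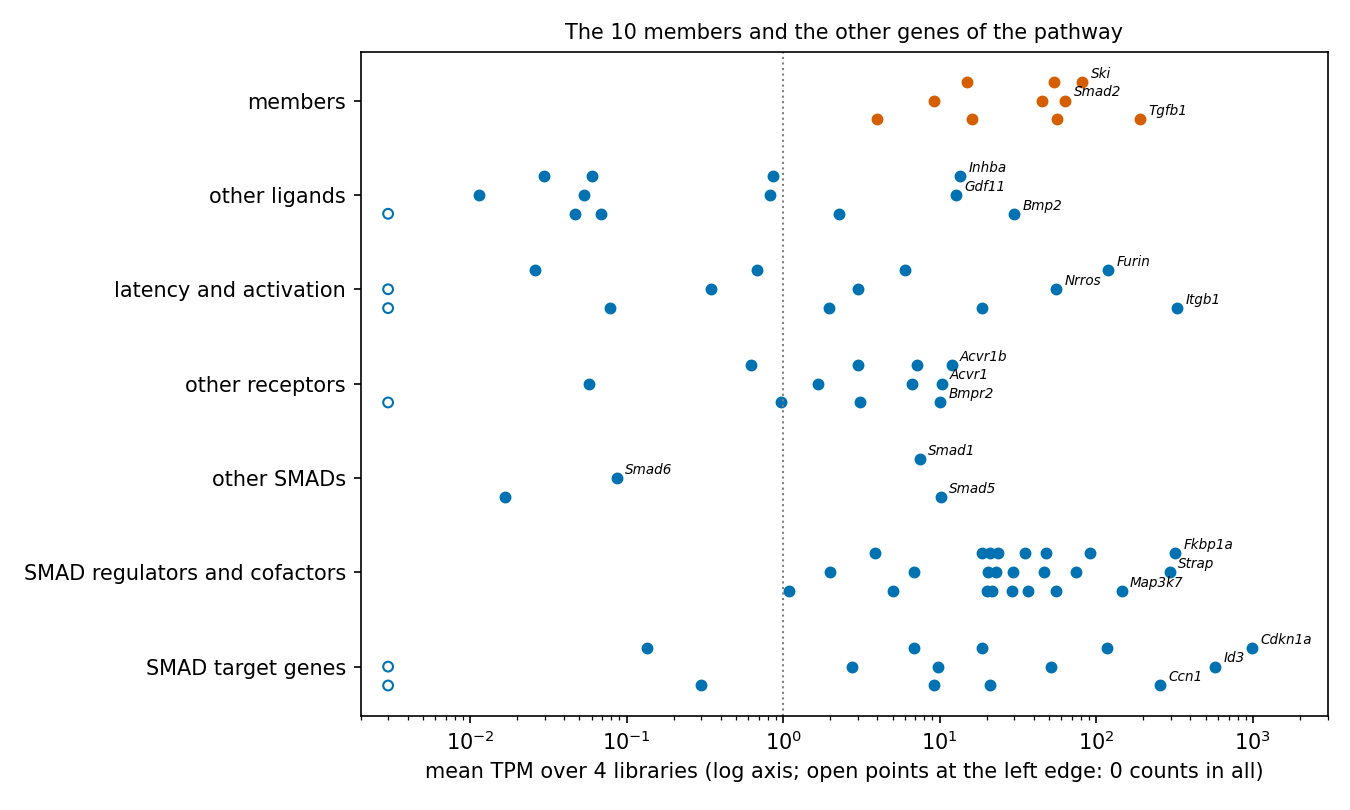
Mean TPM over the 4 libraries (log axis) of the 10 members (top row) and of the other pathway genes by list; open points at the left edge had 0 counts, the dotted line is 1 TPM and the 3 highest genes of each row are named. Of the other ligands 4 of 13 lie above 1 TPM in every library, and of the SMAD regulators and cofactors 23 of 24.

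Regulators and cofactors of SMAD signalling were almost all expressed, 23 of 24 being detected with a median of 26.3 TPM. Fkbp1a (FKBP12), which binds type I receptors, stood at 320 ± 9.66 TPM, Strap, a receptor-associated protein, at 295 ± 7.52 TPM, and Map3k7 (TAK1), a kinase of the SMAD-independent branch, at 145 ± 7.85 TPM. The ubiquitin ligase genes Smurf1 and Smurf2 stood at 20.1 ± 2.17 and 21.1 ± 1.59 TPM, near each other. The gene not detected in every library was Zfyve9 (SARA), an anchor of SMAD2 and SMAD3, at 1.095 ± 0.218 TPM.

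Of the list of 18 genes known as SMAD targets in various cells, which contains the members Smad7, Skil and Ski, 11 of the other 15 were detected. Cdkn1a, a cell-cycle inhibitor with many other inducers, stood at 985 ± 48.8 TPM, Id3 at 572 ± 42.1 TPM and Ccn1 at 257 ± 15.97 TPM. Pmepa1 and Ldlrad4, feedback inhibitors of the pathway, stood at 18.7 ± 1.63 and 6.85 ± 0.754 TPM. The integrin gene Itgae, which TGF-beta induces in T cells, stood at 0.299 ± 0.132 TPM, and Cdkn2b at 0.136 ± 0.134 TPM. Tgfbi and Ctgf (matched to the symbol Ccn2) had 0 counts throughout, with limits of 0.0804 and 0.0753 TPM. Foxp3, the regulatory T-cell factor gene, gave 2.36, 3.54, 3.49 and 1.58 TPM over replicates 1 to 4. These rest on 158 to 228 counts per library, and likeness of Foxp3 to Smad3 or Smad7 over the 4 libraries was not tested. With no untreated or TGF-beta-treated libraries to compare, these levels do not show whether the pathway was active.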

How the data were processed

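Each library had its own deposited table of counts, whole fragments per gene without normalization. Per the file headers, the authors ran featureCounts 1.4.6-p4 on read pairs with both ends aligned, on the reverse strand, over exons of GENCODE mouse release 13. The build is mm10, per the labels. Which aligner version was used is not given in the sources used here. Symbols came from GENCODE mouse release 21, by identifier without version (50376 of 50600 genes). One listed gene, Ctgf, was found by its synonym.

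TPM was computed here from those counts and each table's exon lengths. Detected means at least 1 TPM in every library. For a gene at 0 counts, 3 counts in a library set its limit, and the highest limit over libraries is quoted. Limits cover counting error only. Spread was tested in edgeR 4.0.16 (R 4.3.3; TMM, filterByExpr, trended dispersion, intercept-only fit, deviance against chi-square on 3 degrees of freedom, Benjamini-Hochberg over all genes), after a check on simulated data. Pairs were compared by an exact sign-flip test over 16 sign patterns. With 1 group, no groups were compared and no replicates were paired.

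The members, lists and pairs were chosen with earlier results of these data known. The genes named are the members, both genes of each pair, the markers, and of each list its first gene, its 3 highest detected genes and any called for spread. Others were named after their values were seen, and some listed genes are not reported here. Alternatives were thresholds of 0.5 and 5 TPM or 10 counts, TPM over protein-coding genes, a pseudocount of 0.1, a common dispersion, DESeq2 1.42.0 (its size factors, and its dispersion outliers), TMM-scaled CPM, filtering at a mean count of 50 or not at all, and omitting replicates singly. Transcript lengths were added after seeing the data.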

Additional observations from a re-analysis of the deposited data

Results flagged for a closer look

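Among 79 values checked, 2 had 1 library far from the other 3, where chance alone gives about 1 in 20. Furin stood at 130.7 TPM in replicate 3, against 115 to 117 TPM in the other libraries. In TMM-scaled log2 CPM, Furin was nearer level, at 8.24, 8.32, 8.40 and 8.31 in replicates 1 to 4. Its edgeR p for spread was 0.860. Thbs1, which encodes a TGF-beta activator, stood at 1.91 TPM in replicate 4, against 1.98 to 1.99 TPM in the others. Its highest over lowest ratio was 1.04, from 168 to 322 counts per library with a counting error of up to 7.72%. No member had such a library.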

How the results depend on the processing

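All 10 members were detected at 0.5 TPM, at 10 counts and without any 1 replicate, and 9 at 5 TPM, where Smad3 was lost. The 53 other pathway genes detected became 43 to 61. All 10 pair differences kept the sign of their mean under every alternative. No member was called for spread under any edgeR setting or by DESeq2. With a common dispersion 617 of 13681 genes were called, against 94 in the main fit. Among the 617 were 2 of the 60 other pathway genes tested, Ltbp4 and Foxp3. The number called was 43 as DESeq2 dispersion outliers and 38 to 87 when 1 replicate was left out. The cause was not tested, beyond there being fewer libraries when 1 is left out. TPM over protein-coding genes raised all 10 members, among them Tgfb1 from 191 to 202 TPM and Ski from 81.4 to 86.1 TPM. Only Smad2, from 63.5 to 67.1 TPM, moved past its SD, which was 0.747 TPM. With TMM-scaled CPM the highest or lowest library changed for Tgfb1, Tgfbr2, Smad2, Smad7 and Ski. Levels compared between genes depend on the length used, most for Smad2 and Tgfb1. For Smad2 the transcript length divides counts taken over shorter exons, so it understates the level. Depth did not limit the members, whose lowest count was 276.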
